A study of Homo sapiens with 6 samples.

Results

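The 33 genes described here encode the enzymes and transporters that take glucose to pyruvate and lactate, pass pyruvate into mitochondria and divert glucose 6-phosphate into the pentose phosphate pathway. They were taken by symbol from a list that also holds PGM1, which links glucose 6-phosphate to glycogen. On the arrays 30 of the 33 had a probe set, a group of probes read together, that names 1 gene, out of 18417 genes measured that way. PGAM1 was covered only by probe sets that name a second gene, and the lactate transporters SLC16A1 and SLC16A3 were not analysed here.

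The samples were MCF10A cells, a human breast epithelial cell line that does not form tumours, in a version titled mcf10erbb2, after the receptor tyrosine kinase ErbB2. There were 3 arrays of RB-proficient cells (miNS in the titles) and 3 RB-deficient-labelled arrays (miRB), RB being the retinoblastoma protein, which holds back the E2F factors. All 6 samples came from 7 days of 3-D culture in Matrigel, in DMEM/F12 with 2% horse serum, 10 µg/ml insulin, 2 mM glutamine, cholera toxin, hydrocortisone and antibiotics, and cells and matrix were lysed together. The labels used here do not say how ErbB2 was expressed, how RB was lowered or whether each line was 1 clone. They also do not say that replicates were separate cultures, and a p-value then reflects just the scatter among these 6 samples, and that scatter may be technical.

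Glycolysis splits glucose into pyruvate in the cytosol and yields ATP and NADH. Lactate dehydrogenase returns the NADH to NAD+ by making lactate, while the pyruvate dehydrogenase complex turns pyruvate into acetyl-CoA in mitochondria. The pentose phosphate pathway has an oxidative branch that makes NADPH and a reversible non-oxidative branch that interconverts sugars and supplies ribose 5-phosphate for nucleotides. Most steps have several isoforms from separate genes, and proliferating epithelial cells are known for high glucose use.

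RB1, which encodes RB, had log2 values of 7.01, 5.77 and 7.65 across RB-proficient arrays and 3.45, 5.09 and 6.04 in the RB-deficient-labelled arrays. The groups overlapped, so every direction below rests on the labels. Median deposited intensities ran from 21.4 to 28 per array. Across genes, which are not independent replicates, the RB-proficient arrays correlated at Pearson's r of 0.90 to 0.92 with each other and the RB-deficient-labelled arrays at 0.67 to 0.75. The RB-deficient-labelled arrays 1 and 2 stood apart from the other 4 arrays. They correlated with the RB-proficient arrays at 0.68 to 0.75, while array 3 of that group did so at 0.83 to 0.88, above its 0.71 and 0.75 with arrays 1 and 2. In arrays 1 and 2, 4.71% and 1.62% of genes were at the floor of the scale, against 0.33% to 0.68% in the other arrays. Of 8 mammary epithelial markers 7 were lower (87.5%, against 58.6% of all genes), 4 of them without overlap (50%, against 15.3%). EPCAM was higher without overlap (12.5% of the 8, against 7.12% of all genes). The summed intensity of the 8 markers was 3331 to 5934 across RB-proficient arrays and 2079 to 2840 in the others. Of the 8, 0 were at the floor of the scale. Of these, ITGB4, an integrin subunit of hemidesmosomes, differed by −2.29 (SE 0.52), and KRT5, a basal keratin, by −2.40 (SE 0.90). Summed intensities of 7 fibroblast markers, 3 of them lower, were 144 to 192 and 141 to 292, those of 6 endothelial markers, 3 lower, 535 to 661 and 374 to 479, and those of 5 leukocyte markers, 3 lower, 336 to 462 and 202 to 252. COL3A1, a fibrillar collagen, was at the floor in 1 RB-deficient-labelled array and differed by −2.28, and COL1A1 differed by 0.83. CDH5, the endothelial cadherin, was the brightest endothelial marker. It had a mean of 8.93 ± 0.21 (SD, n = 3) across RB-proficient arrays and of 8.06 ± 0.24 (SD, n = 3) in the others. PECAM1 differed by −0.79, a sign that turned with the mean of its probe sets. Of the 6 endothelial markers, 2 were lower without overlap (33.3%, against 15.3% of all genes) and 1 higher (16.7%, against 7.12%). Among leukocyte genes, the lysosomal protein gene CD68 differed by −1.16 and PTPRC by 1.38. The actin reference gene ACTB had 9.22, 9.04 and 9.46 across RB-proficient arrays and the lower values 7.84, 7.32 and 6.81 in the others. ACTB was the lowest in difference of 9 reference genes, of which 7 were lower (77.8%, against 58.6% of all genes) and 2 higher. Lower without overlap was 1 of the 9, ACTB itself (11.1%, against 15.3%). The median difference of the 9 was −0.76, and SDHA differed by −1.04. The part of these differences in the results below was not tested, and in bulk RNA fewer cells of a type and less RNA per cell cannot be told apart.

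The largest differences were those of TPI1 and PKM in lower glycolysis, PGD in the oxidative pentose phosphate branch and the glucose transporter SLC2A1. The TPI1 difference rests on 1 of its 2 probe sets, and the other differed by −0.0020. Lactate dehydrogenase, the pyruvate dehydrogenase subunit PDHA1 and the pentose isomerases RPE and RPIA differed by less than their standard error (SE). Of the 30 measured genes, 27 were lower in the RB-deficient-labelled arrays, against 58.6% of all genes. In 15 of the 30, every value in the RB-deficient-labelled arrays lay below every RB-proficient value, against 15.3% of all genes, and for 1 gene, SLC2A3, every value lay above, against 7.12% of all genes. The list's median difference was −1.0 on the log2 scale, beside −0.21 over all genes. The median was −1.33 over the 8 mammary epithelial markers and −0.76 over the 9 reference genes. At least 2-fold lower were 15 of the 30, against 21.6% of all genes, and 0 were 2-fold higher, against 6.55%. With limma's p adjusted over all 18417 genes, at a threshold of 0.05, 0 of the 30 passed lower, against 0.00543% of all genes, and 0 passed higher, against 0%. At an unadjusted p under 0.05, limma gave 12 of them lower and 0 higher, against 10.8% and 2.85% of all genes. An offset of 16 added to the intensities before log2 was a setting chosen after seeing the data. With it 6 members passed lower, against 1.01% of all genes, and 0 higher, against 0.038%. With limma's trend and robust options 3 passed, against 0.331% of all genes, and with a floor of 16 in place of 1 it was 2, against 0.261%, and 0 higher, against 0.0543%. Among the 9 reference genes, 1 passed lower with the offset, 1 with trend and robust and 0 with the floor of 16. Among the 8 mammary epithelial markers, 1 passed lower with the offset, 0 with trend and robust and 1 with the floor of 16.

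**Figure D1:**
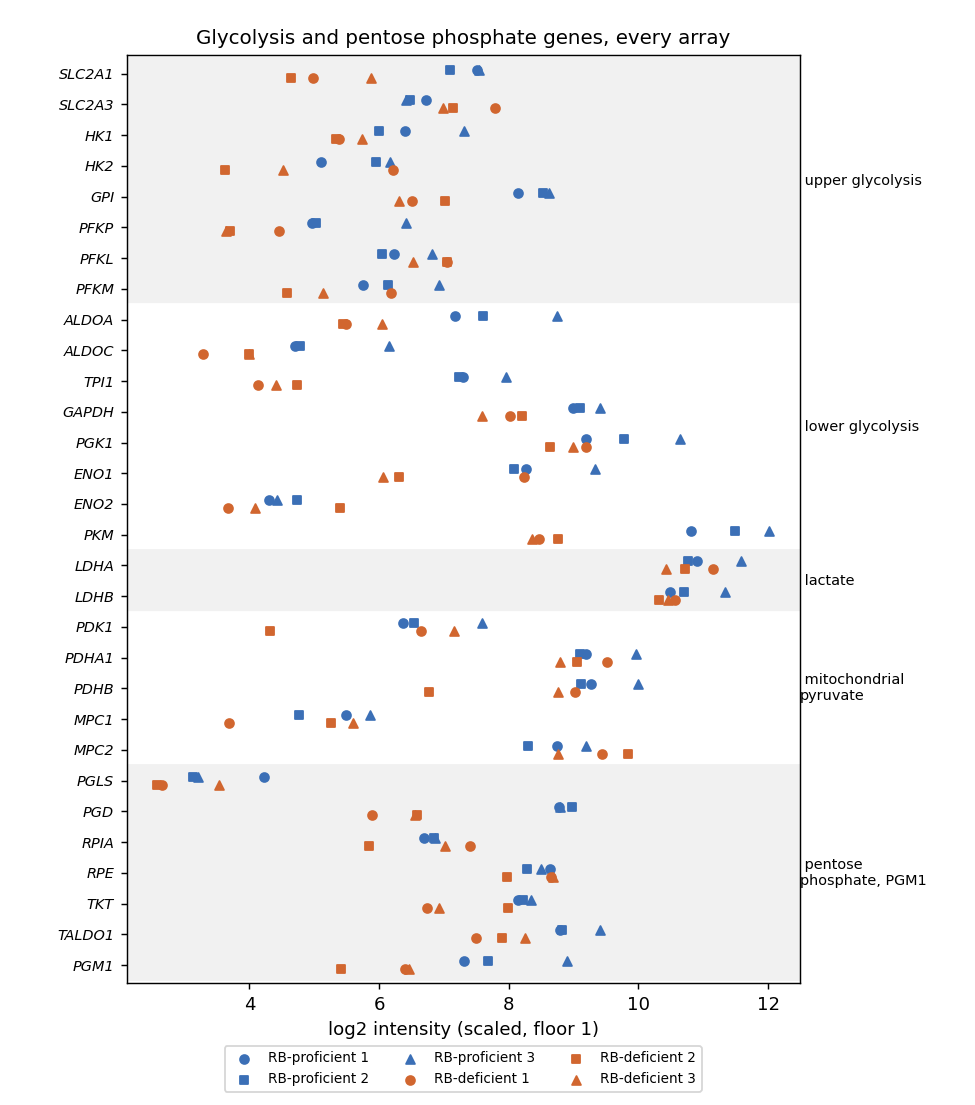
Scaled log2 intensity of the 30 measured genes in each of the 6 arrays, in pathway order from top to bottom; blue symbols are the 3 RB-proficient arrays and orange symbols the 3 RB-deficient-labelled arrays, with the symbol shape giving the replicate. TPI1, PKM, PGD and SLC2A1 show the groups widely apart, while LDHA, RPE and RPIA show them mixed.

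To show the regulatory sequence next to the genes it belongs to, promoter windows were taken from RefSeq on build GRCh38.p14, from 250 bases before the outermost listed start up to the start, for the 3 members with the smallest p whose window lies outside the annotated gene (PGD, SLC2A1 and ALDOA) and for LDHA, whose groups overlapped. Capitals mark the hypoxia response core, ACGTG or GCGTG on either strand, and the GC box, GGGCGG on either strand, and a hit at the palindromic E-box CACGTG is also an ACGTG hit on each strand. Which start the cells used was not examined.
PGD, chr1:10398814-10399063, plus strand: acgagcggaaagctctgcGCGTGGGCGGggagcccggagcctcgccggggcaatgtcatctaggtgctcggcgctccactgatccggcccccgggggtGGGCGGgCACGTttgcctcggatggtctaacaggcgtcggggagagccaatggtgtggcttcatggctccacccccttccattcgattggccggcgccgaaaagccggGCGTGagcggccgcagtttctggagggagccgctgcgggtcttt
SLC2A1, chr1:42958869-42959118, minus strand: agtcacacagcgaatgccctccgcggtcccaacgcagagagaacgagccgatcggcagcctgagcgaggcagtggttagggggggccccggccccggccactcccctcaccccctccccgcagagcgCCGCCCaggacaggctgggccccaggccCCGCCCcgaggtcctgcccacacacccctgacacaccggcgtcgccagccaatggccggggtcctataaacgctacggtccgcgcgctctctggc
ALDOA, chr16:30064029-30064278, plus strand: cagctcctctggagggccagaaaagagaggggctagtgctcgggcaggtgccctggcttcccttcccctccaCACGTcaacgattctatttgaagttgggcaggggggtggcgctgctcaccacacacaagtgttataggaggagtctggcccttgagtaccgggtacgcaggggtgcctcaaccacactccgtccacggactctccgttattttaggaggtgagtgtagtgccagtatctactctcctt
LDHA, chr11:18394313-18394562, plus strand: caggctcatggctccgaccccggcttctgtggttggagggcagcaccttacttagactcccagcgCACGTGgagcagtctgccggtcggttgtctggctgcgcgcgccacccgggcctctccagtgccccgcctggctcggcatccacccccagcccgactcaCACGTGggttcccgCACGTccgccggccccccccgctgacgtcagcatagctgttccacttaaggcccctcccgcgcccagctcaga

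The PGD window held 3 hypoxia cores and 2 GC boxes, the SLC2A1 window 0 cores and 2 GC boxes, the ALDOA window 1 core and 0 GC boxes, and the LDHA window 5 core hits, 4 of them in its 2 E-boxes. A window was listed for 31 of the 33 genes. ACGTG stood in 10 of these 31 windows (32.3%), against 18.6% of the 27305 promoters of all genes, and GCGTG in 10 (32.3%), against 31.9%. The GC box was in 23 (74.2%), against 42.2% of all promoters, and the E-box in 4 (12.9%), against 6.46%. The TATA box TATAAA was in 4 (12.9%), against 11.2%. Of the E2F letters, TTTCGCGC was in the GAPDH window alone and TTTGGCGC in 0 windows, against 0.458% and 0.542% of all promoters. The median GC content was 68.4% in the member windows and 57.6% in all promoters, which bears on every GC-rich motif. The windows of TPI1 and PKM, the genes with the largest differences (for TPI1 by its brighter probe set), held 5 and 3 GC boxes and 0 of the other motifs. Such letters describe the windows only.

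In what follows, values joined by "against" are log2 intensities of RB-proficient arrays 1 to 3 first and of RB-deficient-labelled arrays 1 to 3 second. Glucose enters through facilitative transporters, and the 2 on the list lay on opposite sides. SLC2A1, the basal transporter GLUT1, read 7.51, 7.09 and 7.54 (log2) across RB-proficient arrays and 4.97, 4.64 and 5.88 in the RB-deficient-labelled arrays. The groups were apart by over 1 unit, and the third RB-deficient-labelled array was the nearest. The difference was −2.22 (SE 0.52, 4.65-fold lower, adjusted p 0.206 in limma's test). SLC2A3, the high-affinity transporter GLUT3, had 6.72, 6.48 and 6.42 against 7.79, 7.13 and 6.99. Every value of SLC2A3 in the RB-deficient-labelled arrays was above the RB-proficient ones, with a difference of 0.76 (SE 0.48, adjusted p 0.509 in limma's test). Within each array the SLC2A1 value minus the SLC2A3 value was 0.78, 0.61 and 1.12 across RB-proficient arrays and −2.81, −2.50 and −1.11 in the others. This shift of −2.98 between the groups was the largest among 8 isoform pairs.

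Hexokinases phosphorylate glucose and keep it in the cell. HK1, the widely expressed isoform, had 6.39, 6.0 and 7.32 against 5.37, 5.33 and 5.73, with no overlap and a difference of −1.09 (SE 0.52). HK2, the inducible isoform, had 5.10, 5.95 and 6.17 against 6.21, 3.63 and 4.51, so the first RB-deficient-labelled array was the highest of all 6 and the other two the lowest. GPI, which turns glucose 6-phosphate into fructose 6-phosphate, had 8.14, 8.52 and 8.62 against 6.5, 7.01 and 6.31. For GPI the groups were apart in all arrays, and the difference was −1.82 (SE 0.48, 3.52-fold lower, adjusted p 0.213 in limma's test).

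Phosphofructokinase commits fructose 6-phosphate to glycolysis and has a platelet, a liver and a muscle isoform. PFKP, the platelet isoform, had 4.96, 5.03 and 6.41 across RB-proficient arrays and 4.46, 3.70 and 3.64 in the RB-deficient-labelled arrays, with a difference of −1.53 (SE 0.57, adjusted p 0.29 in limma's test). PFKL, the liver isoform, had 6.23, 6.05 and 6.82 against 7.04, 7.04 and 6.53. PFKL was thus not lower in any RB-deficient-labelled array than in the first or second RB-proficient array, and its difference was 0.50 (SE 0.49). PFKM, the muscle isoform, had 5.74, 6.14 and 6.93 against 6.18, 4.58 and 5.14, where the first RB-deficient-labelled array lay among the RB-proficient ones. The within-array value of PFKP minus PFKL was −1.28, −1.01 and −0.41 across RB-proficient arrays and −2.58, −3.34 and −2.89 in the others, a shift of −2.04. PFKL minus PFKM differed by 1.48 with no overlap, and PFKP minus PFKM by −0.56 with overlap.

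**Figure D2:**
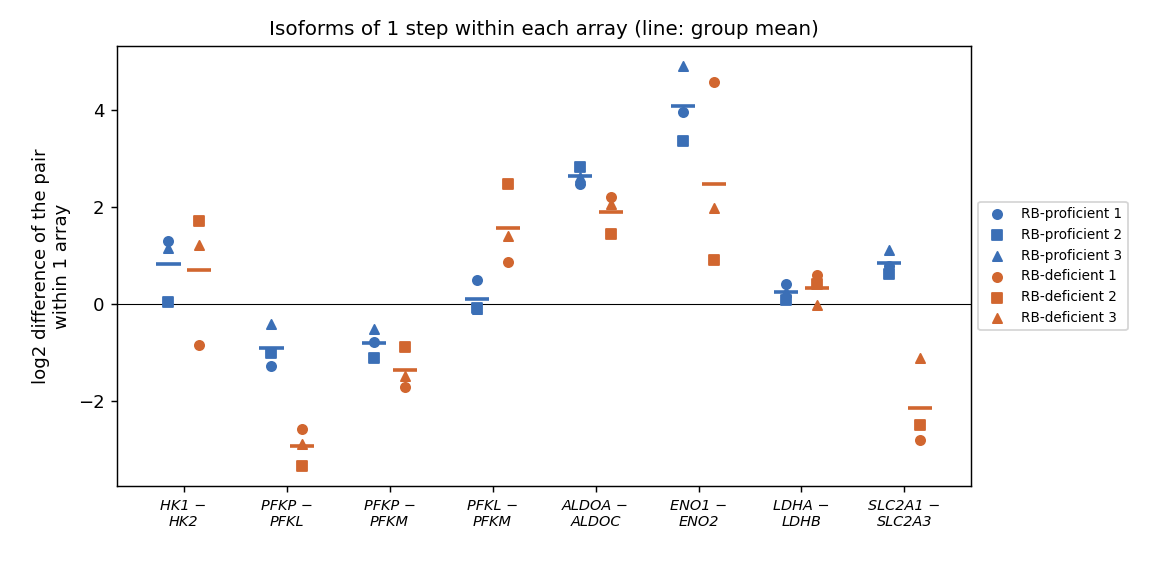
Difference in log2 intensity between 2 isoforms of the same step within each array, for the 8 pairs measured; blue symbols are RB-proficient arrays, orange symbols RB-deficient-labelled arrays, and lines are group means. The groups stand apart for SLC2A1 − SLC2A3, PFKP − PFKL, PFKL − PFKM and ALDOA − ALDOC, and overlap for the other 4 pairs.

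The 8 isoform pairs are not independent, since the phosphofructokinase pairs share genes, and no share over other gene pairs was computed. Across the 8 pairs, the groups did not overlap in 4. An exact two-sided permutation test gave p = 0.1 for each of these 4, which is the smallest p that 3 arrays against 3 can give, and 0.2 after Benjamini-Hochberg adjustment over the 8 pairs, so 0 pairs could pass. For LDHA minus LDHB the shift was 0.084 (SE 0.21), the smallest of the 8.

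Lower glycolysis was lower for all 8 of its measured genes, 6 of them without overlap, against 58.6% and 15.3% of all genes, with a median difference of −1.57 beside −0.21 over all genes. Aldolase splits fructose 1,6-bisphosphate into trioses. ALDOA, its main isoform outside liver and brain, had 7.17, 7.60 and 8.75 across RB-proficient arrays and 5.49, 5.44 and 6.05 in the RB-deficient-labelled arrays, with the third RB-proficient array the highest. Its difference was −2.18 (SE 0.56, 4.53-fold lower, adjusted p 0.211 in limma's test). ALDOC, the brain isoform, had 4.70, 4.78 and 6.15 against 3.28, 4.0 and 4.0 and a difference of −1.45 (SE 0.57). The within-array value of ALDOA minus ALDOC differed by −0.73 (SE 0.26).

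TPI1 encodes triosephosphate isomerase, which interconverts the 2 trioses. Its probe set with the higher mean, 8180371, had 7.30, 7.24 and 7.95 across RB-proficient arrays and 4.13, 4.73 and 4.41 in the RB-deficient-labelled arrays. The 2 groups were over 2 units apart, and the difference of −3.07 (SE 0.49, 95% interval −4.17 to −1.97, adjusted p 0.166 in limma's test) was the largest of the 30 genes. A second TPI1 probe set, 7953508, did not share it, with 5.10, 5.40 and 6.38 against 6.29, 6.14 and 4.45. Both its group means rounded to 5.63, and with the mean of both probe sets the TPI1 difference was −1.54. Which of them follows the transcript was not tested.

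GAPDH, which oxidises glyceraldehyde 3-phosphate and makes the NADH of glycolysis, had 8.99, 9.10 and 9.41 against 8.03, 8.21 and 7.59. All 3 values in the RB-deficient-labelled arrays were below the RB-proficient ones, and the difference was −1.23 (SE 0.47, adjusted p 0.302 in limma's test). PGK1, the first ATP-forming enzyme of glycolysis, had 9.20, 9.78 and 10.65 against 9.19, 8.63 and 9.0. The PGK1 groups met almost exactly, at 9.20 and 9.19, so its separation rests on a gap far below its spread (difference −0.93, SE 0.54). PGAM1, the phosphoglycerate mutase, was read only by 5 probe sets shared with PGAM4. They hold 3 distinct readings, since 2 pairs of them have identical values in every array, and their differences ran from −2.23 to −1.0 with every value in the RB-deficient-labelled arrays below the RB-proficient ones. Several of these genes, GAPDH and PGK1 among them, have processed pseudogenes, and whether the probes also read those was not tested.

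ENO1, the main enolase, had 8.27, 8.08 and 9.33 across RB-proficient arrays and 8.24, 6.30 and 6.06 in the RB-deficient-labelled arrays. The first RB-deficient-labelled array stood among the RB-proficient ones, and the other two were lower (difference −1.69, SE 0.68; −2.50 without the RB-deficient-labelled arrays 1 and 2). ENO2, the neuronal enolase, had 4.31, 4.73 and 4.42 against 3.67, 5.40 and 4.09, a difference of −0.10 whose sign turned under 5 of 16 alternatives, and ENO1 minus ENO2 differed by −1.59 with overlap. PKM encodes the pyruvate kinase that makes pyruvate and ATP in the last step. It had 10.81, 11.49 and 12.01 across RB-proficient arrays and 8.47, 8.76 and 8.35 in the RB-deficient-labelled arrays. The highest PKM value of the latter lay over 2 units below the lowest RB-proficient value, with a difference of −2.91 (SE 0.51, 95% interval −4.06 to −1.76, adjusted p 0.206 in limma's test).

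**Figure D3:**
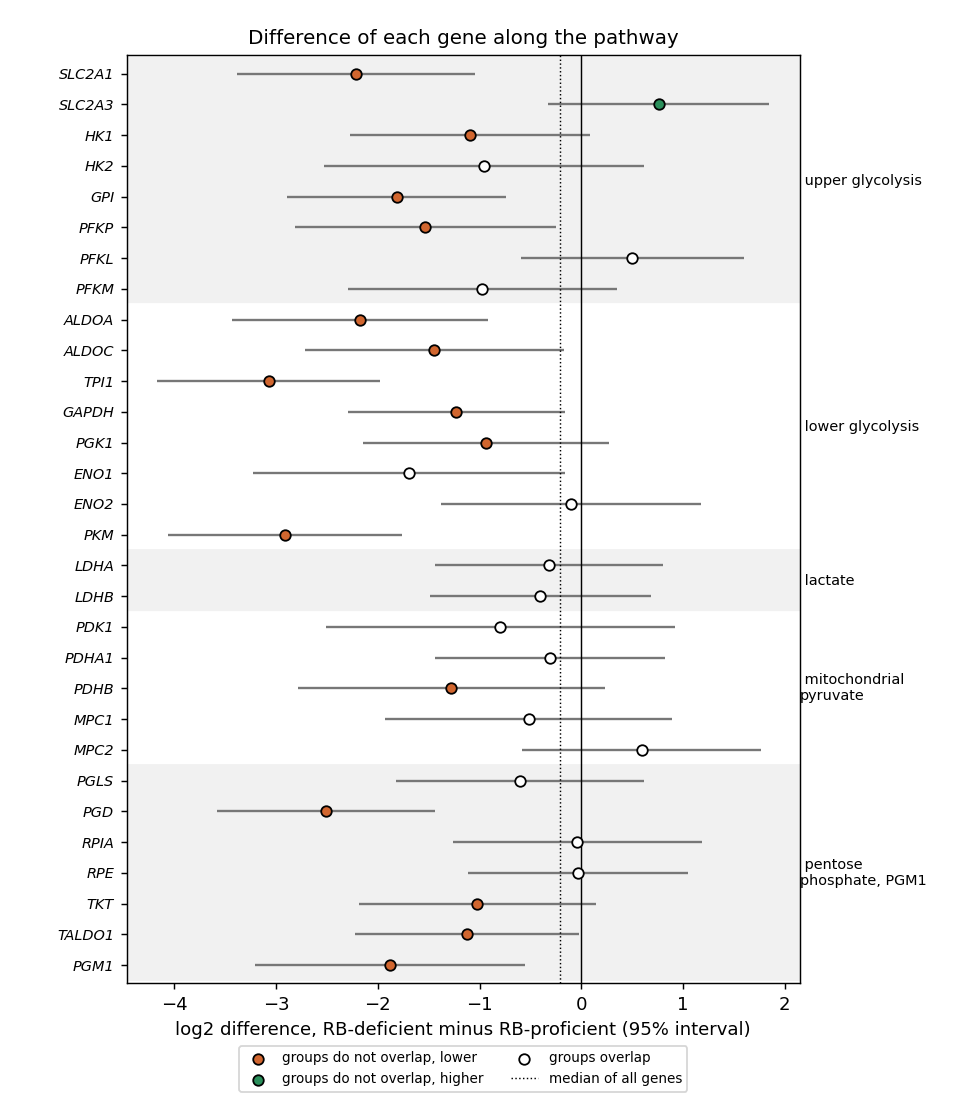
Difference in log2 intensity, RB-deficient minus RB-proficient, for each of the 30 genes in pathway order, with limma's 95% interval; filled orange points mark genes whose groups do not overlap with RB-deficient lower, the green point the 1 gene with RB-deficient higher, open points the rest, and the dotted line the median of all genes. TPI1, PKM and PGD lie farthest to the left, and SLC2A3, PFKL and MPC2 are to the right of 0.

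Beyond pyruvate, 1 of the 7 measured genes, PDHB, was lower without overlap, a share near the 15.3% of all genes. The rest had overlapping groups. LDHA, the lactate dehydrogenase subunit that predominates in glycolytic cells, had 10.91, 10.77 and 11.57 across RB-proficient arrays and 11.15, 10.72 and 10.42 in the RB-deficient-labelled arrays. Its groups overlapped, and the difference of −0.32 had a 95% interval of −1.44 to 0.80. LDHB, the heart-type subunit, had 10.49, 10.70 and 11.34 against 10.56, 10.31 and 10.45, a difference of −0.40 with an interval of −1.49 to 0.68. These intervals still allow a 2-fold lower level of either gene.

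Pyruvate enters mitochondria through a carrier of 2 subunits, MPC1 and MPC2. MPC1 had 5.49, 4.76 and 5.86 against 3.69, 5.27 and 5.60, with only the first RB-deficient-labelled array below all others. MPC2 had 8.74, 8.30 and 9.19 against 9.43, 9.84 and 8.76, a difference of 0.60 (SE 0.52) in the opposite direction. PDHA1, the catalytic alpha subunit of pyruvate dehydrogenase, had 9.20, 9.11 and 9.97 against 9.51, 9.05 and 8.79, and its interval ran from −1.44 to 0.83. PDHB, the beta subunit, had 9.27, 9.11 and 10.0 against 9.03, 6.77 and 8.76. The second RB-deficient-labelled array set most of that PDHB difference of −1.28 (SE 0.67), which was −0.57 without it. PDK1, a kinase that inhibits pyruvate dehydrogenase, had 6.37, 6.54 and 7.59 against 6.65, 4.32 and 7.15, where the same second array was alone far below, and without it the PDK1 difference went from −0.80 to 0.063.

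In the pentose phosphate pathway the oxidative enzyme PGD stood apart from the isomerases of the non-oxidative branch. PGD, the 6-phosphogluconate dehydrogenase that makes NADPH and ribulose 5-phosphate, had 8.78, 8.97 and 8.80 across RB-proficient arrays and 5.89, 6.58 and 6.55 in the RB-deficient-labelled arrays. Its RB-proficient values had an SD of 0.10, and all values of the other group were over 2 units lower. The difference was −2.51 (SE 0.48, 5.69-fold lower, adjusted p 0.206 in limma's test). PGLS, the lactonase just before PGD, was dim, with 4.22, 3.14 and 3.20 against 2.66, 2.58 and 3.53, and its groups overlapped.

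RPIA and RPE, which isomerise ribulose 5-phosphate to ribose 5-phosphate and xylulose 5-phosphate, had differences of −0.041 (SE 0.55) and −0.033 (SE 0.48). RPE had 8.63, 8.27 and 8.5 against 8.65, 7.98 and 8.68, and its difference was the smallest in size of the 30 genes. The intervals ran from −1.26 to 1.18 for RPIA and from −1.11 to 1.05 for RPE. TKT, transketolase, had 8.14, 8.22 and 8.35 against 6.74, 7.99 and 6.92, where the second RB-deficient-labelled array lay close to the RB-proficient ones. TALDO1, transaldolase, had 8.79, 8.82 and 9.40 against 7.49, 7.89 and 8.26. Both were apart between the groups, with differences of −1.02 (SE 0.52) and −1.12 (SE 0.49, adjusted p 0.358 in limma's test). PGM1, which interconverts glucose 1-phosphate and glucose 6-phosphate, had 7.31, 7.69 and 8.91 against 6.40, 5.41 and 6.45, a difference of −1.88 (SE 0.59, 3.68-fold lower).

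The levels of these genes also differed between arrays of 1 group. Among the RB-proficient arrays, the third held the highest value for 25 of the 30 genes, against 44.3% of all genes. Its median deviation from the RB-proficient mean was 0.47, against −0.19 and −0.25 in the first and second. Medians in the RB-deficient-labelled arrays 1 to 3 were −0.84, −1.22 and −0.86. The list median was −0.75 without the third RB-proficient array, and the members lower at an unadjusted p under 0.05 were then 6 in place of 12, while the share over all genes went from 10.8% to 5.34%. Without the RB-deficient-labelled arrays 1 and 2, which left 1 array in that group with its spread taken from the others, the list median was −0.86 and 22 of the 30 genes were lower, against 57.0% of all genes. With the offset, which was added after seeing the data, 6 genes passed. Their adjusted p in limma's test there was 0.00871 for PKM, 0.0178 for the brighter TPI1 probe set and 0.0178 for PGD. It was 0.0392 for SLC2A1, 0.0416 for GPI and 0.0416 for ALDOA.

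**Figure D4:**
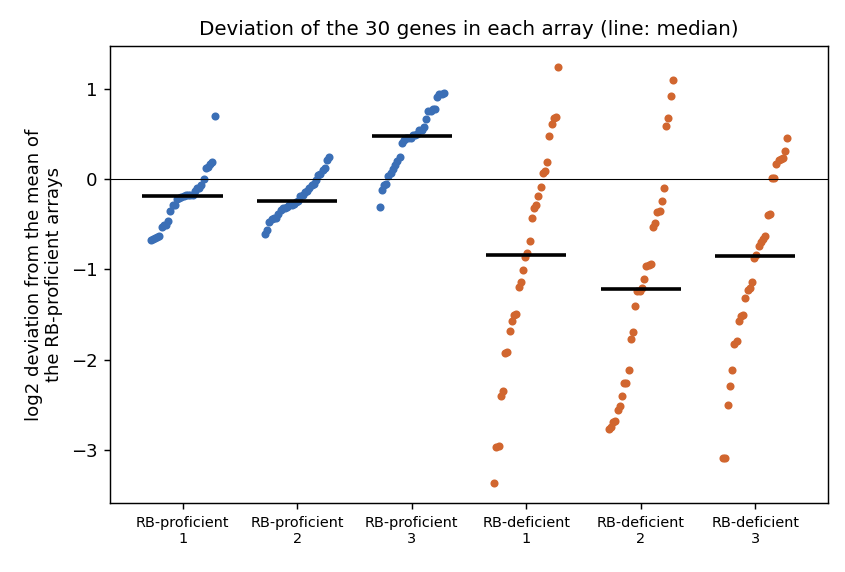
Deviation of each of the 30 genes from its mean over the RB-proficient arrays, sorted within each array; points are genes and black lines medians over the 30 genes. The medians are 0.47 in the third RB-proficient array and −0.84 to −1.22 in the RB-deficient-labelled arrays, whose points spread from below −2.7 to above 0.

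Other genes of glucose metabolism were taken from 8 lists with 58 symbols, of which 52 were measured. In limma's test 0 of the 52 passed in either direction, 33 were lower (63.5%, against 58.6% of all genes), 8 were lower without overlap (15.4%, against 15.3%) and 2 were higher without overlap (3.85%, against 7.12%). The shares lower and lower without overlap were near those of all genes. Of 7 measured glycolytic isoforms typical of other tissues, 2 were lower (28.6%, against 58.6% of all genes) and 5 higher, with a median difference of 0.47. ENO3, the muscle enolase, had 3.43, 2.60 and 1.82 against 3.95, 4.28 and 3.47, and PGAM2, the muscle mutase, 4.47, 4.42 and 4.20 against 4.79, 5.44 and 4.72, both dim and both without overlap. These were the 2 of the 7 that were higher without overlap (28.6%, against 7.12% of all genes). With a floor of 16 it was 1 of the 7, beside 1000 of all 18417 genes, and the median of the 7 was 0.12. The 10 other sugar transporters and hexokinases had a median of 0.24, with ADPGK, an ADP-dependent glucokinase, at −0.69 and the fructose transporter SLC2A5 at −0.49. The 6 gluconeogenesis genes had a median of 0.19, with PCK1 at 0.59 and FBP1 at 0.31.

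Glycogen and hexose phosphate genes were lower for all 6 measured, against 58.6% of all genes, with a median of −1.44. Of the 6, 3 were lower without overlap (50%, against 15.3% of all genes). PYGB, the brain glycogen phosphorylase, had 4.97, 5.88 and 6.95 against 2.58, 3.08 and 4.25, and GYS1, the muscle glycogen synthase, 5.99, 5.33 and 6.29 against 3.02, 4.77 and 4.13. BSG, or basigin, which carries lactate transporters to the cell surface, had 5.96, 6.47 and 6.84 against 3.59, 4.63 and 3.74. BSG was the nearest to passing of the 52 (difference −2.44, SE 0.53, adjusted p 0.206 in limma's test, 0.0416 with the offset of 16), while SLC16A4 of the same transport list had overlapping groups. PRPS1, which makes phosphoribosyl pyrophosphate from ribose 5-phosphate, had 4.29, 5.76 and 6.30 against 3.06, 2.65 and 4.01, and H6PD, the hexose 6-phosphate dehydrogenase of the endoplasmic reticulum, differed by −1.42 and reached the floor in 1 array. Of 8 other pyruvate dehydrogenase genes 7 were lower (87.5%, against 58.6% of all genes). Lower without overlap was 1 of the 8 (12.5%, against 15.3%), PDPR, a phosphatase regulator, at −1.18. PDK2 differed by −1.81 with 1 array at the floor.

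Fructose 2,6-bisphosphate activates phosphofructokinase, and its level is set by the PFKFB enzymes and lowered by TIGAR. PFKFB2 had 4.98, 5.83 and 4.96 against 0.93, 3.10 and 3.48, without overlap, and a difference of −2.75 (SE 0.71) that was −1.26 with the offset of 16. PFKFB1, PFKFB3 and PFKFB4 differed by −0.15, 0.18 and −0.041, and each had a sign that turned under at least 1 alternative. TIGAR differed by −1.18, with 1.65 in the first RB-deficient-labelled array and overlap in the others.

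Regulators of glycolytic transcription were lower for 13 of 18 (72.2%, against 58.6% of all genes), 6 of them without overlap (33.3%, against 15.3%). HIF1A, the hypoxia-inducible factor subunit that drives many of these genes in low oxygen, was higher without overlap, at 8.88, 8.72 and 8.89 against 9.68, 10.31 and 8.99 (difference 0.83, SE 0.52, adjusted p 0.501 in limma's test). It was the 1 gene of the 18 that was higher without overlap (5.56%, against 7.12% of all genes). The HIF1A groups nearly met, at 8.89 and 8.99, a gap far below the SE. TXNIP, a glucose-responsive gene whose product limits glucose uptake, had 11.35, 11.04 and 11.47 against 9.58, 9.19 and 10.37 (difference −1.57, SE 0.51), and passed with trend and robust in limma's test (adjusted p = 0.0422). MYC, which activates glycolytic genes, had 6.15, 6.48 and 8.54 against 6.87, 6.12 and 5.62 with overlap. The kinase genes AKT2 (−2.48, SE 0.63) and MTOR (−1.91, SE 0.54) had the smallest p of the 18 and groups without overlap. Neither passed.

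**Figure D5:**
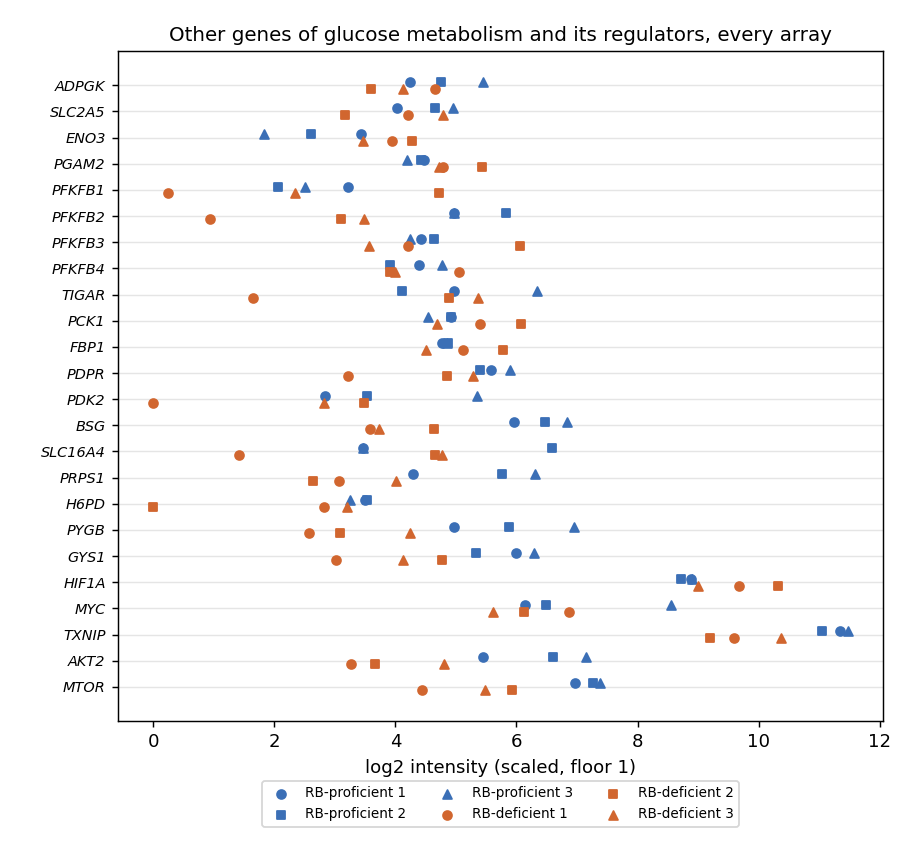
Scaled log2 intensity of the other named genes of glucose metabolism and of its regulators in each of the 6 arrays; blue symbols are RB-proficient arrays and orange symbols RB-deficient-labelled arrays. BSG, PYGB, GYS1, TXNIP, AKT2 and MTOR lie lower without overlap in the RB-deficient-labelled arrays, ENO3, PGAM2 and HIF1A lie higher, and a value of 0 is the floor.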

How the data were processed

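The deposited values were linear intensities, 1 per probe set and array. The authors made them with Affymetrix Expression Console 1.1, per the submitters' processing notes. How values were summarised and normalized is not given in the sources used here. Per the labels' protocols, RNA was amplified (WT-Ovation Pico) before biotin labelling. Arrays were brought to 1 median over 33297 probe sets, values under 1 were set to 1 (the floor, 0 on the log2 scale), and log2 was taken. Detection calls were not used, so whether a dim gene lay above background is unknown, and differences of dim genes depend on the floor.

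The 19460 probe sets with 1 symbol in the platform annotation were kept, and where a gene had more than 1, the brightest by mean log2 over the 6 arrays. limma 3.58.1 (R 4.3.3) gave the two-sided group test from lmFit and eBayes without covariates, adjusted by Benjamini-Hochberg over 18417 genes at a threshold of 0.05. The fit was also run on simulated data with independent noise for each gene, without array effects or a floor. That run does not vouch for the fit on these arrays. Each difference is the RB-deficient mean minus the RB-proficient mean (n = 3 each), and the number of arrays limits the precision. Within-array isoform differences were compared by exact permutation in SciPy 1.17.1.

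The members and lists were chosen with earlier results of these data known, so no list was tested. All members are named. Of the other lists any gene may be named, and always RB1, ACTB, HIF1A, MYC, TXNIP, the PFKFB genes, TIGAR and the 2 with the smallest p in each. Alternatives were quantile normalization, centring, a floor of 16, a filter on the dimmest 25% of genes, the mean of probe sets, trend and robust, the replicate block, no scaling, and each array left out. The offset of 16, the joint omission of the RB-deficient-labelled arrays 1 and 2, and the E2F letters were added after seeing the data. No batch is given in the labels, and no coordinates other than those of RefSeq promoters are given.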

Additional observations from a re-analysis of the deposited data

How the results depend on the processing

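Of the 30 genes, 24 kept their direction under all 16 alternatives, and 6 passed the threshold under some. The number of members that passed lower was 0 with the main settings, 2 with a floor of 16, 3 with trend and robust and 6 with the offset of 16. The members without overlap and higher numbered 1 with the main settings, beside 1312 of all 18417 genes. They numbered 2 with quantile normalization, beside 1559 genes, and 3 without the RB-deficient-labelled arrays 1 and 2, beside 4702 genes. With single arrays left out they numbered 1 to 3, beside 1650 to 2851 genes, where fewer arrays make separation easier. Across genes, the deviations of same-numbered arrays from their group means correlated at −0.12, 0.07 and −0.11. With 3 arrays per group, such deviations cannot settle whether the numbers pair the samples. With the replicate block 0 members passed, and the list median was −1.0 as without it.

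Without the RB-deficient-labelled arrays 1 and 2, the difference was 0.31 for PDK1, 0.23 for MPC1, 0.0067 for PGLS, 0.23 for RPIA, 0.21 for RPE, −0.87 for PFKFB3, 0.22 for TIGAR, 0.25 for SLC2A5, −0.10 for PCK1, −0.32 for FBP1, 0.28 for SLC16A4, 0.022 for COL3A1 and −0.028 for COL1A1. There the mitochondrial pyruvate median was 0.010, with 2 genes lower and 2 lower without overlap, 2 lactate genes were lower without overlap, and 4 of 7 pentose phosphate genes were lower. With 1 array in that group, 57.0% of all genes were lower and 37.6% lower without overlap. With quantile normalization RPIA was 0.093, RPE 0.15 and PFKFB1 0.33. Centring gave ENO2 0.034, RPIA 0.094, RPE 0.10 and PFKFB4 0.093. The floor of 16 gave ENO2 0.0099 and PFKFB1 0.24, and the offset of 16 gave PFKFB1 0.16. With the mean of probe sets PECAM1 was 0.59. The cause was not tested.

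With single arrays left out the difference ran from −0.61 to 0.26 for ENO2, −1.35 to 0.063 for PDK1, −0.89 to 0.062 for MPC1, −0.36 to 0.41 for RPIA, −0.16 to 0.20 for RPE, −1.30 to 0.94 for PFKFB1, −0.55 to 0.70 for PFKFB3, −0.41 to 0.17 for PFKFB4, −0.013 to 0.62 for FBP1 and −1.47 to 0.22 for SLC16A4. It ran from −0.64 to 0.63 for the isoform pair HK1-HK2 and from −0.049 to 0.26 for the isoform pair LDHA-LDHB. Lactate genes lower without overlap then numbered 0 to 2 of 2, and mitochondrial pyruvate genes 1 to 2 of 5. The share over all genes was then 17.9% to 26.3%.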

Other observations

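Neighbouring steps differed in their shift between the groups, in pairs chosen after their values were seen and given without a test. The PKM value minus the LDHA value was −0.1, 0.72 and 0.44 across RB-proficient arrays and −2.68, −1.96 and −2.07 in the RB-deficient-labelled arrays. The PGD value minus the RPE value was 0.15, 0.69 and 0.29 across RB-proficient arrays and −2.77, −1.39 and −2.13 in the others. Neither pair of groups overlapped. Each pair sets a gene with a large difference against a gene with a small difference, so the lack of overlap is no separate result.

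Among genes with a mean log2 intensity of 7 or more, the median difference was −1.12 over 15 members and −0.38 over all 2986 genes, and 9 of the 15 members were lower without overlap against 22% of the genes. From 5 to 7 the medians were −0.96 over 11 members and −0.26 over 5922 genes, and 4 of the 11 were lower without overlap against 17.9%. Below 5 they were −1.02 over 4 members and −0.08 over 9509 genes.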
